A study of Drosophila melanogaster with 25 samples.

Results

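RNA of wild-type leg discs was compared with RNA of wild-type wing discs of Drosophila melanogaster, that is, the larval precursor of a ventral thoracic appendage with that of a dorsal one. Sample titles gave the groups: 3 arrays came from leg discs and 3 from wing discs, out of 25 arrays in the series. All 18769 probe sets that are not Affymetrix controls were compared, out of 18952 in the deposited table. The series title names direct targets of the eye-forming protein Eyeless as the subject.

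All discs came from larvae of the third instar. The groups used here were wild-type leg, UAS-ey leg, ato-mutant UAS-ey leg, UAS-ey wing, wild-type antennal and wild-type wing discs with 3 arrays each, beside 4 arrays of wild-type eye discs. A further 3 arrays of antennal discs labelled Uey entered the fit, where they add to the estimate of spread, and no value of theirs is given. UAS-ey larvae carry a transgene for Eyeless, and ato (atonal) is a proneural gene. The GAL4 driver, the ato allele, the wild-type strain, the sex of the larvae, the number of discs pooled and the thoracic segments of the leg discs were not stated in the labels or the series text. The samples are called biological triplicates, without naming separate cultures, so p-values measure the spread between these samples.

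Imaginal discs are epithelial sacs set aside in the embryo that grow in the larva and turn into adult appendages at metamorphosis. Leg and wing primordia start from neighbouring cells of the thorax, and selector genes then keep them apart: the Sp-type zinc finger genes, Dll and the disco genes on the ventral side, and vg with apterous on the dorsal side. Hox genes set segment identity, and a wing disc also makes the notum, the dorsal body wall of the thorax.

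Values are log2 signals with a lowest value of 6.91 on every array, which is treated as a floor. It held 26.2% to 30.4% of the probe sets of each of the 6 arrays, and the array medians lay between 7.67 and 7.83. The log2 gap between the 3′ and 5′ GAPDH control signals, which widens as RNA breaks down or labelled fragments shorten, was 1.79, 1.79 and 1.93 on the leg arrays, against 1.99, 2.44 and 2.38 on the wing arrays. These GAPDH values do not overlap. The same gap for the eIF-4a control did overlap, at 2.09, 2.09 and 2.34 on the leg arrays, against 2.30, 2.50 and 2.45 on the wing arrays. The part of RNA quality in the differences below was not tested. Wing replicate 1 stood apart. The SD of its differences over all probe sets was 0.330 against wing replicate 2 and 0.299 against wing replicate 3, but 0.254 against leg replicate 3, while wing replicates 2 and 3 differed by 0.131. Of 255 probe sets at least 2-fold apart between the leg mean and the mean of wing replicates 2 and 3, wing replicate 1 lay nearer to the leg mean in 105 (41.2%). Among the 15 such Hox, limb selector, T-box and Iroquois genes it did so in 0.

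A probe set is called when its limma p-value, adjusted over all 18769 probe sets, is under 0.05. By that rule 961 probe sets (5.12%) differed between the discs: 420 (2.24%) were higher and 541 (2.88%) were lower in leg discs. Without wing replicate 1 the number was 3427 (18.3%), of which 6.66% of all probe sets were higher and 11.6% lower. It was 1171 without leg replicate 3, but 422 without leg replicate 1, 427 without leg replicate 2, 402 without wing replicate 2 and 392 without wing replicate 3, and 194 when the 6 arrays were fitted alone. The balance moved too, to 216 higher and 176 lower without wing replicate 3. Between the fit on all arrays and that without wing replicate 1, the shared calls numbered 939, which is 97.7% of the 961 and 27.4% of the other. Of the 961, 77 were at least 2-fold higher (0.41%) and 65 at least 2-fold lower (0.346%) in leg discs. The median difference over all probe sets was 0. In whole discs, fewer cells of a type and less RNA per cell cannot be told apart.

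**Figure D1:**
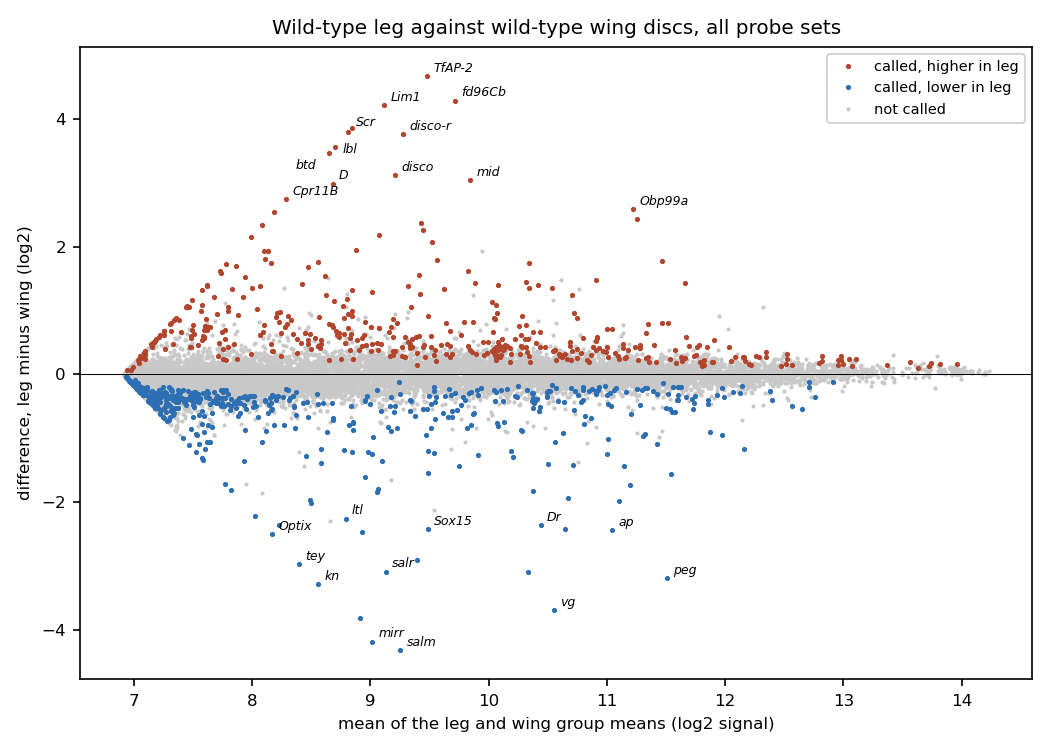
Difference between wild-type leg and wing discs (leg minus wing, log2, vertical axis) against the mean of the 2 group means (log2 signal, horizontal axis) for each of 18769 probe sets. Red points were called higher and blue points lower in leg discs, the genes with the largest differences in each direction are named, and the straight edges on the left are probe sets at the floor of 6.91 in 1 of the discs.

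By a rule that asks for a call, no overlap of the arrays and a named gene, the 12 largest in the leg direction were TfAP-2, fd96Cb, Lim1, Scr, disco-r, lbl, btd, disco, mid, D, Cpr11B and Obp99a. In the wing direction they were salm, mirr, vg, kn, peg, salr, tey, Optix, ap, Sox15, Dr and ltl. Arrays that do not overlap are common: over all probe sets, 5.54% had every leg array above every wing array and 10.1% had every leg array below.

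The members of 5 families that assign segment and limb identity were examined one by one. They were the Hox genes, the ventral selector genes, the wing selector genes, the T-box genes and the Iroquois complex. These families and their members were chosen with earlier results of these data known. Of 31 genes listed, 25 had a probe set that names no other gene. Of these 8 were called higher in leg discs, 11 were called lower and 6 were not called. Taking 1 probe set per gene, 347 of all 11982 genes (2.9%) were called higher and 333 (2.78%) lower. Among the 25, the counts without wing replicate 1 were 7 higher and 11 lower.

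**Figure D2:**
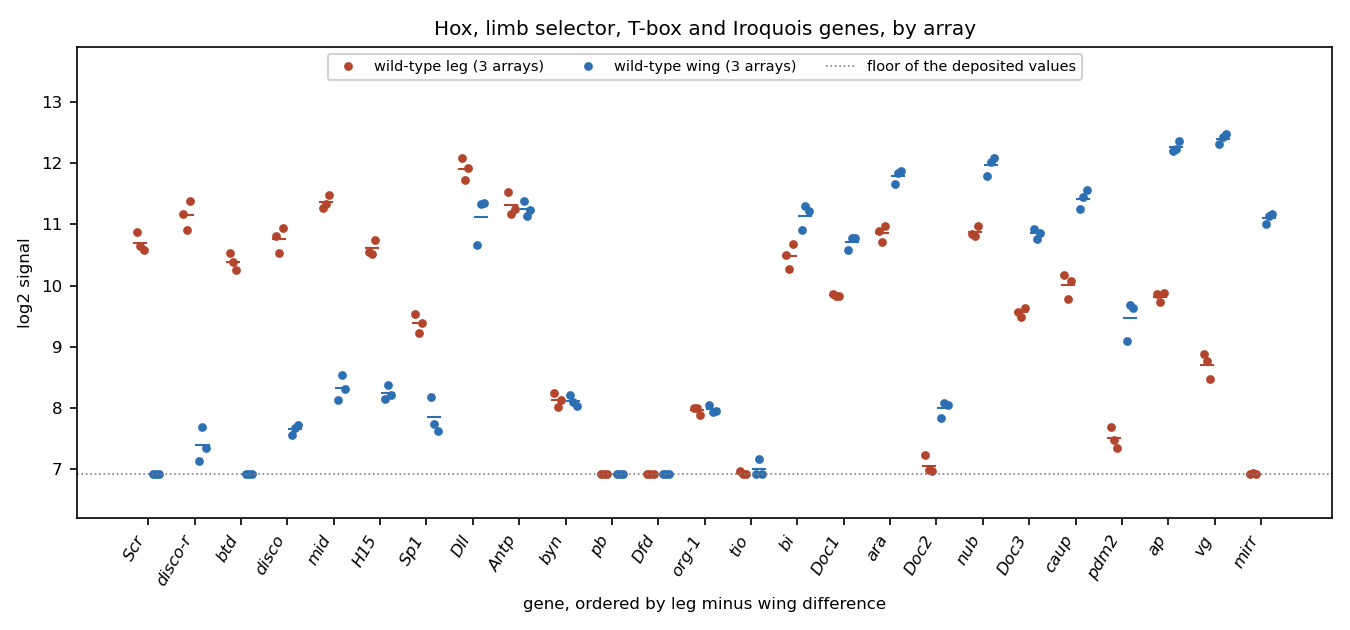
Log2 signal of each of 25 Hox, limb selector, T-box and Iroquois genes on the 3 wild-type leg arrays (red) and the 3 wild-type wing arrays (blue), with a dash at each group mean and the floor of 6.91 as a dotted line. Genes run from the largest leg excess (Scr, 3.79) to the largest wing excess (mirr, -4.18), both taken against values at the floor, and the points of both discs lie together for Antp and for pb and Dfd at the floor.

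Among the Hox genes, 4 of 8 listed were measured, and only Scr was called. Scr (Sex combs reduced) specifies the labial and first thoracic segments and patterns the front pair of legs. It had log2 signals of 10.87, 10.64 and 10.59 on the leg arrays and lay at the floor on all 3 wing arrays. Scr was therefore at least 13.8-fold higher in leg discs (adjusted p = 2e-15). Antp (Antennapedia), the Hox gene of the second thoracic segment, had 11.53, 11.17 and 11.25 in leg discs and 11.38, 11.14 and 11.24 in wing discs. These values overlap, with a log2 difference of 0.06 (standard error, SE, 0.09, adjusted p = 0.87). Both pb and Dfd, Hox genes of the head, were at the floor on all 6 arrays.

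Ventral selector genes were higher in leg discs in 5 of 6 cases, with a median difference of 2.33. The gene btd (buttonhead), an Sp-type zinc finger gene needed to start leg growth, had 10.53, 10.38 and 10.25 in leg discs, while no wing array exceeded the floor, at least 11.1-fold higher in leg discs (adjusted p = 2e-15). Its neighbour Sp1 had 9.54, 9.23 and 9.39 in leg discs, against 8.17, 7.74 and 7.63 in wing discs. The Sp1 arrays did not overlap, and the 2.90-fold difference passed (1.54, SE 0.13, adjusted p = 6.1e-07). The other 2 Sp1 probe sets were at the floor in both discs.

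The zinc finger genes disco and disco-r act together in the ventral limbs. For disco-r the leg arrays gave 11.17, 10.91 and 11.38, against 7.14, 7.69 and 7.34 on the wing arrays, a 13.6-fold difference (3.77, SE 0.14, adjusted p = 3.8e-12). For disco the leg arrays gave 10.81, 10.54 and 10.94, against 7.56, 7.67 and 7.72 on the wing arrays, an 8.66-fold difference (3.11, SE 0.13, adjusted p = 9.8e-12). In both genes the gap between the discs was far wider than the spread within either disc. A second, dimmer disco-r probe set, with means of 7.20 in leg and 7.30 in wing discs, was not called (adjusted p = 0.62).

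Dll (Distal-less), the homeobox gene of the distal leg that is also active along the wing margin, was bright in both discs. It had 12.08, 11.73 and 11.92 in leg discs, against 10.66, 11.33 and 11.35 in wing discs, 1.74-fold higher (0.80, SE 0.20, adjusted p = 0.032). The lowest wing value came from replicate 1, and without it the difference was 0.57 and no longer passed (adjusted p = 0.056). It also failed without leg replicate 1 (0.71, adjusted p = 0.13), leg replicate 2 (0.89, adjusted p = 0.053) or leg replicate 3 (0.79, adjusted p = 0.055). Other Dll probe sets differed by 0.50 (adjusted p = 0.046) and 1.44 (adjusted p = 0.00013) in the same direction. The gene tio (tiptop), a tsh paralogue, had 6.97, 6.91 and 6.91 in leg discs, against 6.91, 7.16 and 6.92 in wing discs, close to the floor, and was not called (adjusted p = 1.0).

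All 4 measured wing selector genes were lower in leg discs, with a median difference of -2.20. The selector vg (vestigial), which with its partner Scalloped turns on wing growth, had 8.87, 8.77 and 8.47 in leg discs, against 12.31, 12.42 and 12.47 in wing discs. That is 13.0-fold lower in leg discs (-3.70, SE 0.41, adjusted p = 1.1e-05), and a second vg probe set differed by -3.81. The leg signal of vg was nevertheless above the floor on every array.

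The LIM homeobox gene ap (apterous), which sets the dorsal compartment of the wing disc, had 9.85, 9.73 and 9.88 in leg discs, against 12.20, 12.24 and 12.36 in wing discs. It was 5.44-fold lower in leg discs (-2.44, SE 0.22, adjusted p = 9.2e-07), with -2.48 at a second probe set. The POU genes nub and pdm2 mark the wing pouch and hinge, and nub is also active in leg joints. The signal of nub was 10.84, 10.80 and 10.98 in leg discs and 11.80, 12.01 and 12.09 in wing discs, 2.13-fold lower (-1.09, SE 0.15, adjusted p = 0.00011). Its neighbour pdm2 was much dimmer in leg discs, at 7.68, 7.48 and 7.35, against 9.09, 9.68 and 9.64 in wing discs (-1.96, SE 0.12, adjusted p = 2.2e-09). None of these genes overlapped between the discs. Dimmer nub probe sets, at -0.13 and -0.08, were not called (adjusted p = 0.41 and 1).

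The T-box genes split into a ventral and a dorsal set. Of 8 measured, 2 were higher and 4 lower in leg discs. The neighbours mid (midline) and H15, which promote ventral fate in the leg, were the higher ones. Values of mid were 11.27, 11.34 and 11.48 in leg discs, against 8.13, 8.54 and 8.31 in wing discs, 8.21-fold higher (3.04, SE 0.14, adjusted p = 3.1e-11). H15 had 10.55, 10.52 and 10.75 in leg discs, against 8.14, 8.37 and 8.21 in wing discs, 5.16-fold higher (2.37, SE 0.09, adjusted p = 4.3e-12).

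The lower ones were the 3 Dorsocross genes and bi (bifid, or optomotor-blind), which respond to the BMP ligand Dpp on the dorsal side of the leg and in the wing. Doc3 had 9.57, 9.48 and 9.64 in leg discs, against 10.93, 10.77 and 10.86 in wing discs (-1.29, SE 0.12, adjusted p = 1.5e-06). Doc1 differed by -0.87 (adjusted p = 9.5e-05), and Doc2, close to the floor in leg discs with a mean of 7.06 against 7.99 in wing discs, by -0.93 (adjusted p = 1.2e-06). The signal of bi was 10.50, 10.27 and 10.69 in leg discs and 10.90, 11.29 and 11.22 in wing discs (-0.65, SE 0.11, adjusted p = 0.0017). The other 2 T-box genes, org-1 (-0.01) and byn (0.02), had overlapping arrays and were not called. Fitted on the 6 arrays alone, bi (adjusted p = 0.24), Dll (0.32), Sp1 (0.059) and Doc2 (0.06) did not pass.

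The 3 Iroquois genes, homeobox genes of the dorsal wing disc and notum, were all lower in leg discs, to unequal degrees. The gene mirr (mirror) was at the floor on leg replicates 1 and 3 and at 6.94 on the other, against 11.01, 11.13 and 11.18 in wing discs. With leg values at the floor the difference is a bound, at least 18.2-fold lower (-4.18, SE 0.26, adjusted p = 3.7e-09). A second mirr probe set differed by -2.37. Its neighbours stayed bright in leg discs: caup had 10.17, 9.78 and 10.07 there, against 11.26, 11.44 and 11.57 in wing discs (-1.42, SE 0.15, adjusted p = 9.4e-06). For ara the values were 10.89, 10.71 and 10.97 in leg discs, against 11.66, 11.84 and 11.87 in wing discs (-0.93, SE 0.09, adjusted p = 2.5e-06).

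Further genes are described through 25 lists of limb patterning, signalling, stage and cell type, which were assembled with earlier results of these data known. Among the limb and patterning lists, the families above included, 30 genes were called higher and 27 lower in leg discs. All lists together held 231 measured genes, a total that also includes the stage and cell type lists. The limb and patterning genes alone are fewer, so 30 and 27 are not shares of 231. Over all 11982 genes, 2.9% were called higher and 2.78% lower. Fitted on the 6 arrays alone, the limb and patterning counts were 15 higher and 16 lower. Among the genes below, that fit lost the calls of B-H1, ss, sob, fng, ct, kni, knrl, dve, noc, salr, mew, pnr, ush, ltl, CG32017, CG4914, sty, neur, sc, ac, so, ds, Tollo, ImpL2, Eip78C, PCNA, hbs, vvl, tyn, up, moody, TwdlE and the E(spl) genes (adjusted p from 0.053 to 0.43). A second fit took the 12 arrays of the leg and wing groups with a bright phe spike-in control, which leaves out UAS-ey leg. It lost some calls that held on the 6 arrays: Sox15 (adjusted p = 0.053), eya (0.075), CG4766 (0.079), ato (0.15), CG8927 (0.14) and Cpr49Ah (0.065). Of the genes lost on the 6 arrays, some failed on the 12 too, as B-H1 (0.23) and pnr (0.18). Others passed on the 12, as salr (0.0064).

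**Figure D3:**
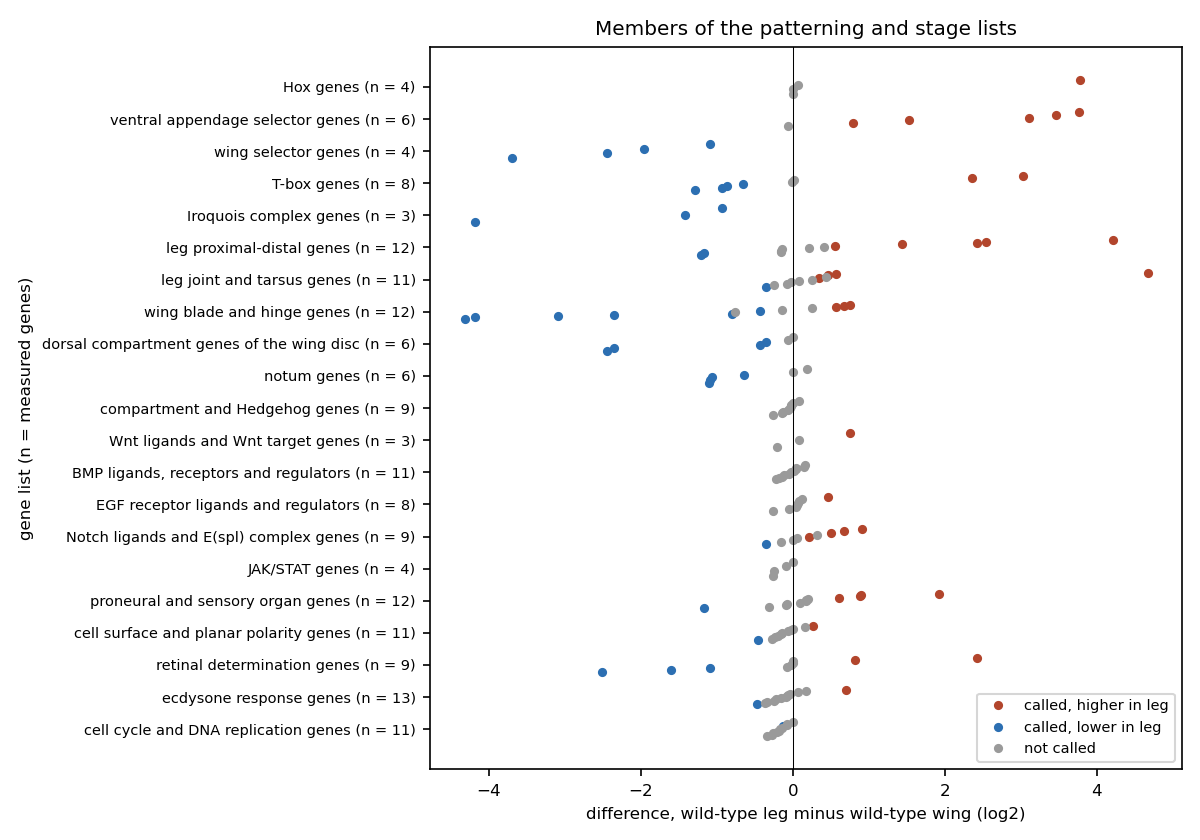
Difference between wild-type leg and wing discs (leg minus wing, log2, horizontal axis) for each measured member of the 21 limb, signalling and stage lists (vertical axis, with the number measured). Red members were called higher and blue members lower in leg discs, grey members were not called, and the compartment and BMP lists hold grey members only.

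Genes of the leg's proximal-distal axis were called higher in leg discs in 5 and lower in 2 of 12 cases, with a median difference of 0.31. Lim1, a LIM homeobox gene of the distal tip and of a proximal ring, had 11.08, 11.19 and 11.40 in leg discs, against 6.91, 7.21 and 6.91 in wing discs, at least 18.5-fold higher, since 2 wing values lay at the floor (4.21, SE 0.13, adjusted p = 1.1e-13). A second, dimmer Lim1 probe set averaged 7.96 in leg discs and was at the floor in wing discs, with a difference of 1.05 (adjusted p = 2.5e-09). The gene dac (dachshund), of the middle leg segments, had 12.56, 12.30 and 12.55 in leg discs, against 9.99, 10.16 and 9.96 in wing discs (2.43, SE 0.09, adjusted p = 3.8e-12). The tarsal genes bab1 and bab2 (bric a brac) were higher too: bab1 had 9.69, 9.14 and 9.56 in leg discs and lay at the floor in wing discs, at least 5.85-fold higher, and bab2 differed by 1.44 (adjusted p = 4.6e-07). The Bar gene B-H1 differed by 0.56 (adjusted p = 0.023), and B-H2 by 0.41 without passing (adjusted p = 0.084). The B-H1 call was lost without leg replicates 1 or 3 or wing replicates 2 or 3 (adjusted p = 0.096, 0.062, 0.14 and 0.1).

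Lower in leg discs were nab, a transcriptional cofactor of the wing pouch and hinge (-1.21, adjusted p = 8e-07, and -0.49 at a dimmer probe set), and ss (spineless), which acts in tarsus and antenna (-1.17, adjusted p = 1.6e-05). The signal of ss was 8.36, 7.70 and 7.92 in leg discs, against 9.03, 9.20 and 9.26 in wing discs. The proximal gene tsh (teashirt) did not pass, with overlapping arrays and a difference of -0.15 (adjusted p = 0.42).

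In the joint and tarsus list, 4 of 11 were higher and 1 lower in leg discs. TfAP-2, a transcription factor needed for leg joints and growth, had the largest leg excess, as measured, of the genes that the rule named. It had 11.88, 11.74 and 11.83 in leg discs, against 6.91, 7.43 and 7.08 in wing discs, at least 25.6-fold higher with 1 wing value at the floor (4.68, SE 0.13, adjusted p = 3e-14). A dimmer TfAP-2 probe set was not called (-0.28, adjusted p = 0.42). The rest were modest: sob, an odd-skipped family gene of the leg joints, at 0.46 (adjusted p = 0.0012), dve at 0.57 (0.014), noc at 0.35 (0.016), and fng (fringe), which modifies Notch, at -0.35 (0.0015). The calls of dve and noc were lost without leg replicate 1 (adjusted p = 0.088 and 0.098), and that of noc also without leg replicate 2 (0.07).

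Wing blade and hinge genes were lower in leg discs in 6 and higher in 3 of 12 cases, with a median difference of -0.60. The spalt zinc finger genes, which place wing veins downstream of Dpp, stood at the end of the range. Signals of salm were 7.19, 7.17 and 6.91 in leg discs, against 11.17, 11.61 and 11.45 in wing discs, at least 20.0-fold lower with 1 leg value at the floor (-4.32, SE 0.36, adjusted p = 3.8e-07). Its paralogue salr had 7.78, 7.64 and 7.34 in leg discs, against 10.00, 11.14 and 10.89 in wing discs (-3.09, SE 0.27, adjusted p = 7.1e-07). The vein genes kni and knrl differed by -0.43 (adjusted p = 0.01) and -0.80 (adjusted p = 0.023), and the knrl call was lost without leg replicates 2 or 3 or wing replicates 2 or 3 (adjusted p = 0.089, 0.074, 0.14 and 0.1). Dr (Drop, a homeobox gene of the dorsal wing) had 9.37, 9.35 and 9.07 in leg discs, against 11.35, 11.72 and 11.78 in wing discs (-2.36, SE 0.32, adjusted p = 0.00011). The higher members were ct (cut, 0.67, adjusted p = 0.012), Wnt6 (0.76, adjusted p = 0.0004) and dve, all of which have roles outside the wing. For ct the call was lost without leg replicate 1 or wing replicates 2 or 3 (adjusted p = 0.061, 0.076 and 0.067). The gene zfh2 was also called lower without wing replicate 1 (-0.93, adjusted p = 0.022).

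In the list of dorsal compartment genes 4 of 6 were lower in leg discs and 0 higher: ap, Dr, fng and the integrin subunit mew (-0.43, adjusted p = 0.03). The mew call was lost without leg replicates 1 or 2 or wing replicates 2 or 3 (adjusted p = 0.11, 0.12, 0.087 and 0.17). Notum genes were lower in leg discs in 4 of 6 cases. The LIM homeobox gene tup (tailup) was at the floor on all leg arrays and at 8.07, 8.01 and 7.97 in wing discs, at least 2.15-fold lower (adjusted p = 1.4e-05). The Pax gene eyg (eyegone) had 7.08, 6.91 and 7.02 in leg discs, against 8.01, 8.05 and 8.22 in wing discs (-1.09, SE 0.12, adjusted p = 6.4e-06).

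The GATA factor pnr (pannier) was bright in leg discs too, at 10.54, 10.17 and 9.39, against 10.68, 11.33 and 11.27 in wing discs (-1.06, SE 0.23, adjusted p = 0.011). Its partner ush differed by -0.64 (adjusted p = 0.026), with overlapping arrays. Both calls depended on single arrays. For pnr the adjusted p was 0.075 without wing replicate 2 and 0.069 without wing replicate 3. For ush it was 0.11, 0.077, 0.16 and 0.13 without leg replicates 2 or 3 or wing replicates 2 or 3.

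Other genes with the largest differences belonged to none of these lists or to lists below. The forkhead gene fd96Cb had 11.93, 11.80 and 11.84 in leg discs, against 7.54, 7.77 and 7.40 in wing discs, 19.5-fold higher (4.29, SE 0.12, adjusted p = 4.5e-14). The homeobox gene lbl (ladybird late) had 10.48, 10.45 and 10.50 in leg discs and was at the floor in wing discs, at least 11.8-fold higher (adjusted p = 3.9e-14). The Sox gene D (Dichaete) had 10.42, 10.23 and 9.86 in leg discs, against 6.91, 7.62 and 7.02 in wing discs, at least 7.93-fold higher with 1 wing value at the floor (2.99, SE 0.17, adjusted p = 7.9e-10).

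On the wing side, kn (knot, or collier), which patterns the central intervein, was at the floor on the leg arrays, against 9.68, 10.55 and 10.37 in wing discs, at least 9.75-fold lower (adjusted p = 6.2e-08). A second kn probe set was not called (-0.16, adjusted p = 0.45). The gene tey was at the floor in leg discs as well, against 9.76, 9.99 and 9.91 in wing discs, at least 7.84-fold lower (adjusted p = 1.7e-17). Sox15, a Sox gene of the wing hinge, had 8.38, 8.28 and 8.18 in leg discs, against 10.49, 10.74 and 10.85 in wing discs (-2.42, SE 0.32, adjusted p = 0.0001), while a dimmer Sox15 probe set was not called (-0.11, adjusted p = 0.11). The Six-class gene Optix was at the floor in leg discs, against 9.01, 9.64 and 9.61 in wing discs, at least 5.68-fold lower (adjusted p = 6.6e-07).

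Secreted and structural products followed at both ends. The signal of peg, which encodes a secreted protein of the wing disc, was 9.93, 9.91 and 9.88 in leg discs and 13.10 on every wing array, 9.12-fold lower (-3.19, SE 0.15, adjusted p = 8.4e-11). The gene ltl (larval translucida), a secreted BMP regulator, had 8.16, 7.48 and 7.34 in leg discs, against 9.43, 10.22 and 10.11 in wing discs (-2.26, SE 0.23, adjusted p = 3.6e-06). The cuticle protein gene Cpr11B had 9.75, 9.75 and 9.49 in leg discs and lay at the floor in wing discs, at least 6.73-fold higher (adjusted p = 5e-06). The odorant-binding protein gene Obp99a was 6.02-fold higher in leg discs, at 12.32, 12.53 and 12.70, against 10.28, 9.68 and 9.82 in wing discs (adjusted p = 1.8e-07).

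Of genes known only by a CG number, the 5 largest in each direction follow, most with smaller differences than the 12 named genes. CG6414 had 10.71, 10.88 and 10.73 in leg discs and was at the floor in wing discs, at least 14.5-fold higher (adjusted p = 6e-12). CG5888 (2.26), CG43394 (1.80), CG32017 (1.74) and CG8927 (1.58) followed in the leg direction. In the wing direction CG4382 had 8.66, 9.10 and 8.62 in leg discs, against 11.71, 12.07 and 11.87 in wing discs (-3.09, SE 0.40, adjusted p = 7.2e-05). It was followed by CG4766 (-2.43), CG32373 (at the floor in leg discs, at least 4.65-fold lower), CG4914 (-1.98) and CG42238 (-1.84).

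In 6 signalling lists 7 of 44 genes were called (15.9%), beside 5.68% of all genes, and 5 of the 7 were Notch pathway genes. In the compartment and Hedgehog list, 0 of 9 were called by limma, with 2 at an unadjusted p under 0.05 and differences from -0.26 to 0.08. The signal of en (engrailed), the posterior selector, was 12.50, 12.42 and 12.34 in leg discs and 12.15, 12.46 and 12.41 in wing discs. Without wing replicate 1, 2 of the 9 were called lower: hh (-0.36, adjusted p = 0.029) and cos (-0.25, adjusted p = 0.0025). In the BMP list, 0 of 11 were called, with 1 at an unadjusted p under 0.05, also 0 without wing replicate 1, and differences from -0.23 to 0.16. Fitted on the 6 arrays alone, the receptor gene put passed (0.15, adjusted p = 0.04). For dpp the values overlapped, at 10.84, 10.45 and 10.70 in leg discs, against 10.70, 10.97 and 10.89 in wing discs (-0.19, adjusted p = 0.41). The JAK/STAT list had 0 of 4 called and 1 at an unadjusted p under 0.05. Without wing replicate 1 the receptor gene dome passed (-0.41, adjusted p = 0.015).

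Of 3 Wnt genes measured, Wnt6 was higher in leg discs, at 10.66, 10.58 and 10.66, against 9.74, 9.96 and 9.91 in wing discs, and Notum was called lower only without wing replicate 1 (-0.32, adjusted p = 0.047). In the EGF receptor list 1 of 8 was called, the feedback inhibitor sty (sprouty), at 0.46 (SE 0.05, adjusted p = 2.7e-06). Of 9 Notch pathway genes 4 were higher and 1 lower in leg discs. Among the higher ones, E(spl)m7-HLH, a Notch target, had 10.75, 10.91 and 10.55 in leg discs, against 9.90, 9.84 and 9.76 in wing discs (0.91, SE 0.09, adjusted p = 3.7e-06). The ubiquitin ligase gene neur differed by 0.68 (adjusted p = 4.1e-05) and E(spl)m4-BFM by 0.50 (adjusted p = 0.0016). E(spl)m3-HLH differed by 0.21 (adjusted p = 0.037), a call lost without leg replicates 1 or 2 or wing replicate 2 (adjusted p = 0.13, 0.15 and 0.22). With the 6 arrays alone none of the 5 passed.

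Proneural and sensory organ genes were higher in leg discs in 4 and lower in 1 of 12 cases. The gene ato, which founds the chordotonal organs of the leg, had 9.12, 8.97 and 9.10 in leg discs, against 7.16, 7.06 and 7.19 in wing discs, 3.81-fold higher (1.93, SE 0.35, adjusted p = 0.0028). The bristle proneural genes sc and ac differed by 0.88 (adjusted p = 0.0001) and 0.61 (adjusted p = 0.0022), and phyl, which acts after them, by 0.90 (adjusted p = 2.5e-05). The single lower member was ss. The later factor sens did not pass (-0.08, adjusted p = 1.0), and its arrays overlapped.

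Retinal determination genes were not uniform: 2 of 9 were higher and 3 lower in leg discs. Beside dac, Optix and eyg, the coactivator gene eya had 8.26, 8.22 and 7.98 in leg discs, against 9.74, 9.80 and 9.72 in wing discs, 3.03-fold lower (-1.60, SE 0.23, adjusted p = 0.0003). Its partner so went the other way, at 8.80, 8.61 and 8.50 in leg discs, against 7.61, 7.99 and 7.86 in wing discs (0.82, SE 0.20, adjusted p = 0.023). The so call was lost without leg replicate 1 (adjusted p = 0.11), leg replicate 2 (0.071) or wing replicate 3 (0.077). In the cell surface and planar polarity list, ds (dachsous) was lower (-0.46, adjusted p = 0.0043) and Tollo higher (0.27, adjusted p = 0.042) among 11 genes. Tollo lost its call without any of leg replicates 1, 2 and 3 and wing replicates 1 and 2 (adjusted p = 0.16, 0.072, 0.068, 0.066 and 0.15). When wing replicate 1 was left out, 0 of the 11 were higher and 4 lower: ds, fj (-0.25, adjusted p = 0.012), stan (-0.32, adjusted p = 0.035) and 18w (-0.28, adjusted p = 0.021).

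In the lists of developmental stage 3 of 24 genes were called (12.5%), beside 5.68% of all genes. Of 13 ecdysone response genes, ImpL2 was higher (0.71, adjusted p = 0.019) and Eip78C lower in leg discs (-0.47, adjusted p = 0.0059), with a median of -0.08. The ImpL2 call was lost without leg replicate 1 (adjusted p = 0.082), leg replicate 2 (0.052) or wing replicate 2 (0.083). Of 11 cell cycle and DNA replication genes 1 was called, PCNA (-0.12, adjusted p = 0.045), and the median was -0.17. The PCNA call failed without leg replicates 1 or 2 or wing replicates 1 or 3 (adjusted p = 0.17, 0.13, 0.07 and 0.22). With wing replicate 1 left out, Mcm6 (-0.21, adjusted p = 0.023) and dup (-0.43, adjusted p = 0.018) passed instead.

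Markers of other cell types were read the same way, since discs carry myoblasts and tracheal branches and can bring other tissue with them. The myoblast factor twi had overlapping arrays, at 10.11, 9.89 and 9.92 in leg discs, against 9.84, 9.92 and 10.18 in wing discs (adjusted p = 1.0). Of 9 muscle precursor markers, lbl and hbs (0.77, adjusted p = 6.4e-05) were higher in leg discs, and sns and lbe were at the floor. The summed linear signal of these markers was 6340 to 7180 in leg discs and 4250 to 4620 in wing discs. That sum includes lbl, which differed by 3.57 with its wing arrays at the floor. The 7 markers not called include twi, htl (0.17), zfh1 (0.50) and Him (0.08), and Him passed without wing replicate 1 (0.38, adjusted p = 0.043). The sum thus does not measure the number of myoblasts. Of 9 tracheal markers, tyn was higher (1.39, adjusted p = 0.00037) and vvl lower (-1.79, adjusted p = 1.7e-07), with sums of 21700 to 26000 in leg and 19700 to 25200 in wing discs. The POU gene vvl also acts in wing veins.

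Differentiated muscle markers gave 1 call among 7 (up, 0.85, adjusted p = 1.7e-05), Mlc2 at the floor, and sums of 2280 to 2880 in leg and 1730 to 2310 in wing discs. Neuron and glia markers gave 1 among 11 (moody, 0.50, adjusted p = 0.042), onecut at the floor, and sums of 9290 to 9890 in leg and 8380 to 10600 in wing discs. The moody call failed without leg replicates 1, 2 or 3 or wing replicates 1 or 3 (adjusted p = 0.17, 0.063, 0.055, 0.066 and 0.16). No haemocyte (of 11), fat body (of 5), salivary gland (of 10), ring gland (of 6) or sex-biased marker (of 4) was called by limma. At an unadjusted p under 0.05 there were 1, 1, 0, 0 and 1. Fat body markers summed to 6880 to 10700 in leg and 9150 to 22500 in wing discs. The haemocyte markers srp and lz, the gland markers ng1 and ng2 and the ring gland markers nvd and spok were at the floor on all 6 arrays. Without wing replicate 1, the haemocyte marker crq (0.49, adjusted p = 0.025), the fat body marker Cat (-0.47, adjusted p = 0.028) and the yolk protein gene Yp1 (-1.14, adjusted p = 4.4e-05) passed. The part of these tissues in the leg and wing difference was not tested.

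The same contrast could be read on arrays that the wild-type comparison did not use. UAS-ey leg discs were compared with UAS-ey wing discs in the same fit, which shares its estimate of spread with the wild-type contrast but none of its arrays. In these discs 4241 probe sets (22.6%) were called, 1389 (7.4%) higher and 2852 (15.2%) lower in leg. The phe spike-in control was dimmer on the UAS-ey leg arrays (8.37 to 8.65) than on the UAS-ey wing arrays (10.66 to 11.11). The sample titles name no batch, and a technical difference between these arrays cannot be told apart from disc. The GAPDH gap was 2.01 to 2.27 on UAS-ey leg and 2.50 to 2.65 on UAS-ey wing arrays. The ato-mutant UAS-ey leg arrays (phe at 10.53 to 11.15, GAPDH gap at 2.76 to 3.29) match the wing arrays in phe, and their comparison with UAS-ey wing arrays called 8.37% higher and 8.17% lower.

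Of the 420 probe sets higher in wild-type leg discs, 214 (51.0%) were also called higher in UAS-ey leg discs and 9 were called the other way. Of the 541 lower ones, 305 (56.4%) were also called lower and 20 the other way. Among those at least 2-fold apart, 64 of 77 higher (83.1%) and 57 of 65 lower ones (87.7%) were called in the same direction, and 0 in the opposite one. The shared calls were 15.4% of the UAS-ey list of higher and 10.7% of its list of lower probe sets. With ato-mutant UAS-ey leg arrays the shares among the 2-fold probe sets were 80.5% and 67.7%, with 3 opposite calls each way. Both of these comparisons use the same UAS-ey wing arrays.

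**Figure D4:**
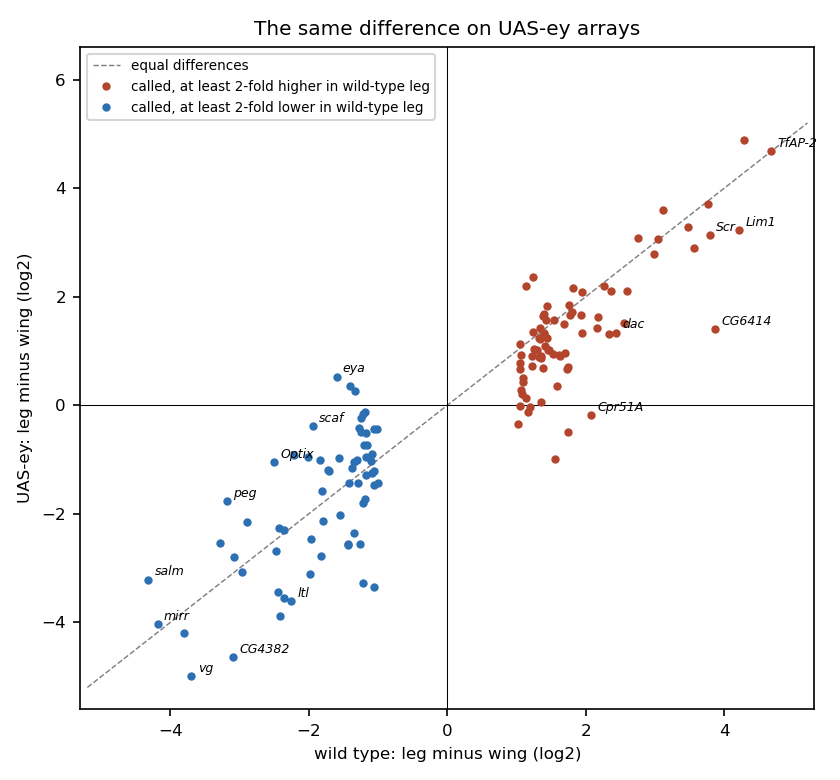
Leg minus wing difference in UAS-ey discs (log2, vertical axis) against that in wild-type discs (log2, horizontal axis) for the 142 probe sets called at least 2-fold apart in wild type, red where higher and blue where lower in leg. The dashed line marks equal differences, TfAP-2 lies on it at 4.68 on both axes, and CG6414, Cpr51A, scaf and eya lie towards or past 0 on the vertical axis.

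All 19 called Hox, selector, T-box and Iroquois genes were called in the same direction in UAS-ey discs, and 18 in ato-mutant discs. In UAS-ey discs the difference was 3.13 for Scr, 3.28 for btd, 3.59 for disco, 3.71 for disco-r, 1.13 for Dll and 3.06 for mid. On the wing side it was -4.99 for vg, -3.44 for ap, -2.47 for pdm2 and -4.04 for mirr. The size of the difference itself differed between wild type and UAS-ey in 3 of the 25 genes, Scr, bi and ara, beside 4.69% of all probe sets. For Scr, at the floor on the wing arrays of both genotypes, this compares the leg levels alone.

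Several wing genes averaged lower on UAS-ey than on wild-type leg arrays, while eya and Optix averaged higher. The gene vg averaged 7.30 in UAS-ey leg discs and 8.71 in wild-type leg discs. For pnr the UAS-ey leg arrays averaged 7.80 and the wild-type leg arrays 10.03. CG4382, a gene at the floor in antennal and eye discs, averaged 7.34 in UAS-ey leg discs and 8.79 in wild-type leg discs. These leg means were not tested against each other, and the phe control was dim on the UAS-ey leg arrays. Whether wild-type leg samples held other thoracic tissue was not tested.

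Not every large wild-type difference recurred. The cuticle genes Cpr51A and TwdlE, at 2.08 and 1.74 in wild type, differed by -0.19 (adjusted p = 0.81) and -0.49 (adjusted p = 0.16) in UAS-ey discs. In the wing direction, eya (0.53, adjusted p = 0.12) and Cpr49Ah (0.27, adjusted p = 0.4) did not pass there. The signal of eya averaged 12.07 in UAS-ey leg discs and 8.15 in wild-type leg discs. These cuticle genes and scaf were chosen after their values were seen. The signal of scaf, a serine protease homologue, was 9.73, 9.64 and 9.73 in wild-type leg discs, against 11.68, 11.58 and 11.66 in wing discs, and its difference was -1.94 there and -0.39 in UAS-ey discs.

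Levels in antennal and eye discs place the leg and wing genes among other appendages. Of 63 genes at least 2-fold higher in leg discs, the antennal mean lay nearer to the leg mean in 41 (65.1%) and the eye mean in 28 (44.4%). Of 55 genes at least 2-fold lower in leg discs, the antennal mean lay nearer to the leg mean in 36 (65.5%) and the eye mean in 32 (58.2%). The antenna is the ventral appendage of the head. Its disc shared most of the leg set by level: TfAP-2 (11.03), fd96Cb (11.54), Lim1 (11.23), disco (11.16), disco-r (11.56), mid (11.19), H15 (10.60), lbl (10.20) and Dll (11.99) were bright there, while in eye discs fd96Cb was at 8.28, Dll at 7.49 and lbl at the floor.

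Scr and Cpr11B were not bright in antennal discs. The antennal mean of Scr was 7.08 and its eye arrays were at the floor, and Cpr11B at the floor in both. Among wing genes, kn, tey, pdm2 and Sox15 were at the floor in antennal and eye discs, whereas salm (10.39 and 10.55), mirr (10.17 and 10.52), salr (9.67 and 9.64) and peg (12.61 and 11.92) were bright in both. Antp, which did not pass between leg and wing discs, was at the floor in antennal and eye discs, and Dfd, at the floor in both thoracic discs, was at 11.24 in antennal discs.

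**Figure D5:**
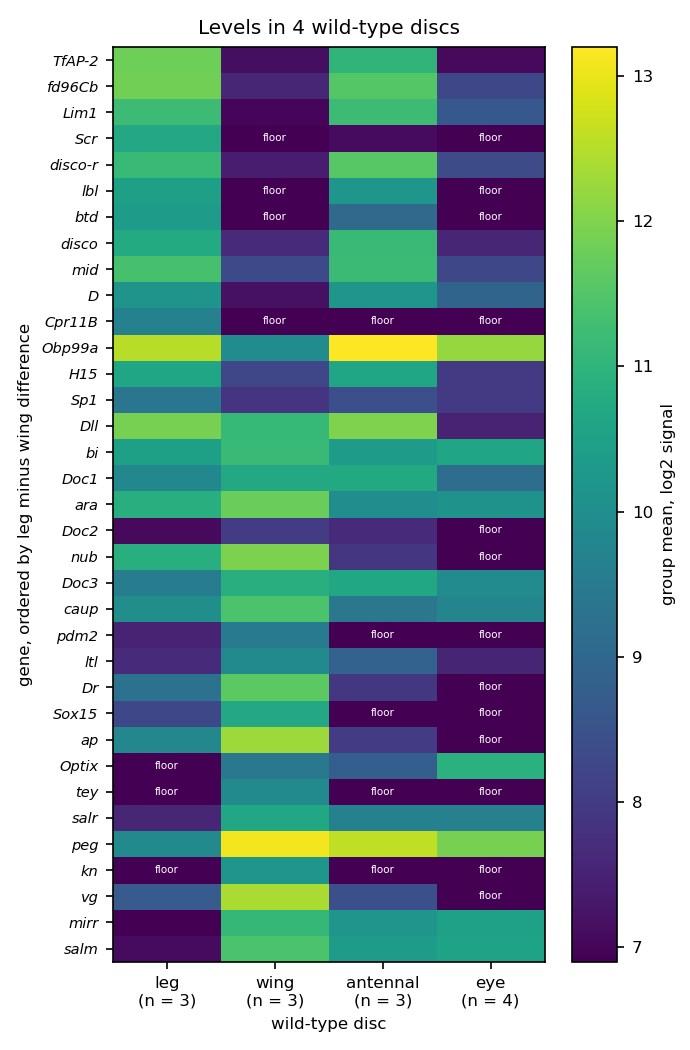
Mean log2 signal (colour) of 35 genes (vertical axis, from the largest leg excess to the largest wing excess) in wild-type leg, wing, antennal (n = 3 each) and eye discs (n = 4), with "floor" where every array was at 6.91. Antennal discs resemble leg discs from TfAP-2 to H15 except at Scr and Cpr11B, and peg, mirr and salm have their lowest mean in leg discs.

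Several of the genes above lie beside a paralogue in the genome, or with 1 gene between them. Of 15 such pairs, a list drawn up with values known, both genes were called in the same direction in 12 and in opposite directions in 0. Over all genes, 5.68% were called, which is a share of single genes and not of neighbouring pairs. The pairs are not independent, since Doc2 and caup each stand in more than 1 pair. The 12 include btd and Sp1, disco and disco-r, H15 and mid, bab1 and bab2, and ac and sc on the leg side. On the wing side they include salm and salr, nub and pdm2, kni and knrl, and the Dorsocross and Iroquois genes. Only 1 gene was called in B-H1 with B-H2 and in lbl with lbe, and none in en with inv. Paralogues share sequence, and cross-hybridisation between their probe sets was not tested.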

How the data were processed

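RNA of imaginal discs was hybridised to Affymetrix Drosophila Genome 2.0 arrays, 1 per sample. Per the labels' protocols, Trizol RNA (100 ng) went through 2 amplification cycles and biotin labelling. The deposited log2 values are 1 per probe set, and how the authors summarised probes, scaled arrays or set a floor is not given in the sources used. The number of arrays limits precision.

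Values were used as deposited. limma (version 3.58.1, R 4.3.3) fitted a mean per group on all 25 arrays (8 groups, 17 residual and 0.45 prior degrees of freedom), with the contrast wild-type leg minus wild-type wing, eBayes and Benjamini-Hochberg adjustment over 18769 probe sets, two-sided, at 0.05. Groups at the floor add no spread, so SE can be too small for such genes. Where every array of a disc was at the floor (6.91, or 120.5 linear), the fold is a bound against it, as it is where some were. The script was tested on simulated data. With 3 arrays each, an exact permutation test cannot go below p = 0.1.

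By the platform annotation, 13647 probe sets stand for 1 gene, 402 for several and 4720 for none. Of the named, 13544 matched the RefSeq gene table, with 0 symbols updated. A gene was represented by its brightest probe set on average over all arrays (11982 genes, 1094 with several). The text names all measured members of the 5 identity families, up to 12 named and 5 CG genes with the largest called, non-overlapping difference in each direction, and up to 5 members with the smallest p of each other list. Lists held 292 genes, of which 61 had no probe set of their own. Members and lists were chosen with earlier results of these data known. Replicate numbers did not pair the discs (correlations of deviations -0.39, -0.07 and -0.09). Alternatives were other array sets, a replicate block, quantile normalization, centring, floor filters, a trended prior and leaving out each array. No sequences were used here, and gene order was used only for the paralogue pairs.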

Additional observations from a re-analysis of the deposited data

Results flagged for a closer look

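For 12 of 51 genes tested, the leg minus wing difference itself differed between wild-type and UAS-ey discs. The test was the limma contrast of contrasts, adjusted over all probe sets, of which 4.69% passed. The 51 were the identity genes and the named and CG-numbered genes with the largest wild-type differences. The contrast uses the same wild-type values, so among genes chosen by size a wider wild-type difference is favoured. The phe control was dim on the UAS-ey leg arrays, for which the sample titles name no batch. Its part in these differences was not tested.

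CG6414 showed the widest gap, 2.46 (SE 0.22, adjusted p = 6.3e-06): its UAS-ey wing arrays averaged 9.54 ± 0.43 (SD, n = 3), whereas the wild-type wing arrays were at the floor. CG32373 (-1.30, adjusted p = 0.00023), peg (-1.43, adjusted p = 0.0015), Optix (-1.45, adjusted p = 0.01) and CG42238 (-0.82, adjusted p = 0.011) were further below their wing level in wild-type than in UAS-ey leg discs. For Optix the leg mean was 9.29 ± 0.05 in UAS-ey discs (SD, n = 3) and at the floor in wild-type discs, so its gap is a bound, as is that of CG32373, also at the floor in wild-type leg discs.

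Values at the floor leave the direction of 4 gaps undetermined. The wing arrays of lbl (0.67, adjusted p = 0.0097) and Scr (0.65, adjusted p = 0.0053) were at the floor in both genotypes, so their gap compares leg levels only, which averaged 9.81 in UAS-ey and 10.48 in wild-type leg discs for lbl. For Scr they averaged 10.05 in UAS-ey and 10.70 in wild-type leg discs. For Lim1 (0.98, adjusted p = 0.0049) and CG32017 (1.04, adjusted p = 0.04) the UAS-ey wing arrays were at the floor, so the UAS-ey difference is a lower bound and the gap an upper one. The genes ltl (1.35, adjusted p = 0.02) and bi (0.85, adjusted p = 0.0055) were less far below their wing level in wild-type than in UAS-ey leg discs, and ltl was at the floor in UAS-ey leg discs. For ara (-0.59, adjusted p = 0.012) the wild-type difference was the wider one.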

How the results depend on the processing

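No named gene changed direction past the threshold under any of the 16 alternative fits. Of 81 named genes called, 42 kept their call under the 15 fits other than the replicate block on the 6 arrays. Among them were 15 of 19 identity genes and 21 of the 24 largest. The fit on probe sets above the floor on all 6 arrays held only 132 of 153 named genes. Genes that it left out, Scr and btd among them, were judged by the other fits. Under all 16 fits, 3 of the 81, 1 of the 19 and 3 of the 24 kept their call. The count of called probe sets depended more on the fit. It was 961 (420 higher and 541 lower in leg discs) on all arrays, 194 (98 and 96) on the 6 arrays alone and 211 (101 and 110) on the 12 arrays with a bright phe control, which leave fewer arrays to estimate spread. Calls at least 2-fold lower were 65 and, on the 6 arrays, 39. Leaving out 1 array gave 392 to 3427 calls, 211 to 1250 higher and 176 to 2177 lower, 71 to 100 at least 2-fold higher and 60 to 123 at least 2-fold lower. The lowest counts came without leg replicates 1 (422) or 2 (427) or wing replicates 2 (402) or 3 (392), and the highest without wing replicate 1. An alternative chosen after the data were seen left out wing replicate 1 and used only the other 5 arrays. It called 1243 probe sets, 414 higher and 829 lower.

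Replicate numbers did not pair the discs. As a block on all arrays they gave 812 calls and cost 3 named genes their call. The replicate block on the 6 arrays gave 9 calls (5 higher and 4 lower, of which 4 and 3 at least 2-fold), and among limb and patterning genes 1 higher and 1 lower. Those genes gave 30 higher and 27 lower in the fit on all arrays, 15 and 16 on the 6 arrays, 18 higher on the 12 arrays, 18 higher without wing replicate 1 on the other 5, and 13 and 17 when at least 2-fold was asked. Centring the arrays moved the share of calls that were higher to 34.1%, against 43.7%. The share of wild-type calls shared with UAS-ey discs was 54.0%, and 66.8%, 67.4% and 42.5% without leg replicates 1, 2 and 3, and 48.8%, 64.4% and 65.1% without wing replicates 1, 2 and 3. Values near the floor are bounds and limit low genes most.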

Other observations

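Some gene families outside the lists, chosen after their values were seen, also held calls. Over all genes, 5.68% were called in either direction. Of 8 Sox genes 3 were higher and 2 lower in leg discs: D, Sox21b (8.61, 8.45 and 8.56 in leg discs and at the floor in wing discs, at least 3.08-fold higher) and SoxN were among the higher ones and Sox15 among the lower. SoxN lost its call on the 6 arrays alone (adjusted p = 0.051) and without leg replicates 1 or 2 or wing replicates 2 or 3 (adjusted p = 0.14, 0.098, 0.13 and 0.13). Of 6 LIM homeobox genes, Lim1 and Awh (10.34, 10.45 and 9.69 in leg discs, against 7.96, 8.10 and 7.87 in wing discs, adjusted p = 2.9e-07) were higher, and ap and tup lower. Of 66 Cpr cuticle genes 3 were higher, 6 lower and 57 not called, with 11 at the floor on all 6 arrays. Cpr49Ag had 9.91, 9.38 and 9.09 in leg discs, against 11.44, 11.30 and 11.11 in wing discs (-1.83, SE 0.26, adjusted p = 0.0002), a call lost on the 6 arrays alone (adjusted p = 0.084).

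A few genes set wing replicate 1 apart from the other wing arrays by a wide margin. CG42834 was at 11.15, 8.46 and 9.80 in leg discs, against 12.65 on wing replicate 1 and the floor on wing replicates 2 and 3. CG14332 had 12.24, 9.99 and 11.15 in leg discs, against 13.39, 8.19 and 8.32 in wing discs, and CG33333 had 12.59, 10.23 and 11.24 in leg discs, against 13.49, 8.03 and 8.09 in wing discs. In these 3 genes wing replicate 1 was the brightest of the 6 arrays and leg replicate 1 the next. CG15484 went the other way, with 7.72, 8.0 and 7.45 in leg discs, against 7.56, 10.13 and 9.79 in wing discs.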
